A study of Mus musculus with 3 samples.

Results

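The genes described here are 10 members of bone morphogenetic protein (BMP) signaling, chosen by symbol from the 47069 genes of the table: the ligand genes Bmp2, Bmp4 and Bmp7, the receptor gene Bmpr1a, the inhibitor genes Smad6 and Grem1, and the target genes Id1, Id2, Id3 and Id4. All 10 were found, each on a single row. They were measured by bulk RNA-seq in cells from the aorta-gonad-mesonephros region (AGM) of wild-type C57BL/6J mouse embryos at embryonic day 11, the embryos of a litter having been combined. Cells with CD31, CD45 or cKit on their surface were gated out, and 3 populations were sorted on NG2, the proteoglycan encoded by Cspg4, and on the PDGF receptor PDGFRβ. DP (double-positive) cells stained for both and are labelled as vascular smooth muscle, PDGFRβ-S (PDGFRβ-single) cells stained for PDGFRβ only and are labelled as sub-vSMCs, and DN (double-negative) cells, labelled as stroma, carried neither in the labels and little or no PDGFRβ in the text of the study. Each population gave 1 library, so no p-value can be given, and every difference below is between these libraries only.

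BMPs are secreted dimers that bind type I and type II receptor kinases. The activated receptors phosphorylate Smad1, Smad5 and Smad9, which enter the nucleus with Smad4 and switch on target genes, among them the Id genes and the feedback inhibitor Smad6. Id proteins hold a helix-loop-helix domain but no DNA-binding region, so they pair with E proteins and other helix-loop-helix factors and keep them from DNA. In the AGM, BMP4 is made in the mesenchyme under the dorsal aorta and is a regulator of the first hematopoietic stem cells.

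Levels are TPM, the authors' read shares per gene length. A level carries an exact Poisson interval and a ratio of levels an exact binomial interval, both at 95%, computed from whole reads recovered from the TPM. They cover counting error only, since PCR copies count as reads, and they say nothing of other embryos or sorts. Genes are called higher or lower where log2(TPM + 1) differed by at least 1, that is 2-fold, and the higher library had 5 TPM or more. In bulk RNA, fewer cells of a type and less RNA per cell cannot be told apart.

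The libraries differed in make-up. With exons of 2 kb in sum, 3 reads of a gene made 0.388 TPM in DP cells, 0.325 in PDGFRβ-S cells and 0.305 in DN cells. Nuclear protein-coding genes took 56.5%, 43.4% and 46.3% of TPM in the DP, PDGFRβ-S and DN libraries, and rescaling to these genes moved the median log2 ratio of all genes by −0.28 in DP against DN, by 0.08 in PDGFRβ-S against DN and by −0.36 in DP against PDGFRβ-S. The genes of the sort followed it in part: Pdgfrb was at 35.1 TPM in DP cells, 14.3 in PDGFRβ-S cells and 7.32 in DN cells, and Cspg4 at 10.5 TPM in DP cells, 0.485 in PDGFRβ-S cells and 1.31 in DN cells. Smooth muscle markers summed to 7707 TPM in DP cells, 244 in PDGFRβ-S cells and 138 in DN cells. Sympathetic and neural crest markers summed to 21.4 TPM in DP cells, 20.1 in PDGFRβ-S cells and 261 in DN cells, and skeletal muscle markers to 17.5 TPM in DP cells, 12.5 in PDGFRβ-S cells and 172 in DN cells, so that markers of these other cell types were highest in DN. Of 8 endothelial markers, 4 were listed at 0 in each library, among them Cdh5, Tie1 and Sox17. Others were detected at low levels. Kdr was at 1.58, 1.53 and 1.16 TPM and Emcn at 1.74, 2.09 and 0.715 TPM in the DP, PDGFRβ-S and DN libraries. Tek was at 2.36 TPM in DP cells, 0.631 in PDGFRβ-S cells and 0.269 in DN cells. Pecam1 was at 0.0865 TPM or less in each, and Cldn5 was found in DN only, at 4.45 TPM.

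Of the ligand genes, Bmp4 was the most abundant in each library. Bmp4, on chromosome 14 from 46383520 to 46390669 of mm10, was at 59.8 TPM in DP cells (55.9 to 63.9), 41.2 in PDGFRβ-S cells (38.3 to 44.3) and 35 in DN cells (32.4 to 37.8). DP was highest and DN lowest, and the 3 intervals did not overlap. Bmp4 was 1.71-fold higher in DP than in DN (1.54 to 1.89) and 1.18-fold higher in PDGFRβ-S than in DN (1.06 to 1.31). It was 1.45-fold higher in DP than in PDGFRβ-S (1.31 to 1.60). It was thus within the 2-fold limit in each comparison. The step from PDGFRβ-S to DP depended on scaling, with a log2 ratio of 0.53 as deposited. This ratio was 0.15 after rescaling to nuclear protein-coding genes, 0.32 without the 20 highest genes and 0.11 after quantile normalization. The libraries carry no strand, and 2 genes on the opposite strand overlap it, Gm15217 at 2.11 TPM in DP cells, 4.78 in PDGFRβ-S cells and 6.47 in DN cells and Gm15222 at 1.50, 3.15 and 1.77 TPM in the DP, PDGFRβ-S and DN libraries.

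Bmp7, a ligand of kidney and mesenchyme development (chromosome 2, 172868012 to 172940321), ran in the opposite order. It was at 3.50 TPM in DP cells (2.69 to 4.48), 5.08 in PDGFRβ-S cells (4.17 to 6.13) and 8.91 in DN cells (7.73 to 10.2), on 63, 109 and 204 reads. Bmp7 was lower in DP than in DN, 2.54-fold (1.91 to 3.43), which is a log2 ratio of −1.14 with the pseudocount. After quantile normalization this ratio was −0.91, within the limit. The PDGFRβ-S library stood between the others, 1.75-fold below DN (1.38 to 2.23).

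Bmp2, which shares receptors with Bmp4 (chromosome 2, 133552159 to 133562885), was scarce at 2.76 TPM in DP cells (1.96 to 3.79), 2.44 in PDGFRβ-S cells (1.74 to 3.32) and 1.77 in DN cells (1.20 to 2.51). Its 38, 40 and 31 reads did not separate the libraries, since the interval of each ratio held 1. The DP to DN ratio of 1.56 had bounds of 0.946 and 2.59. Bmp2 did not reach 5 TPM in any library and was not counted.

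**Figure D1:**
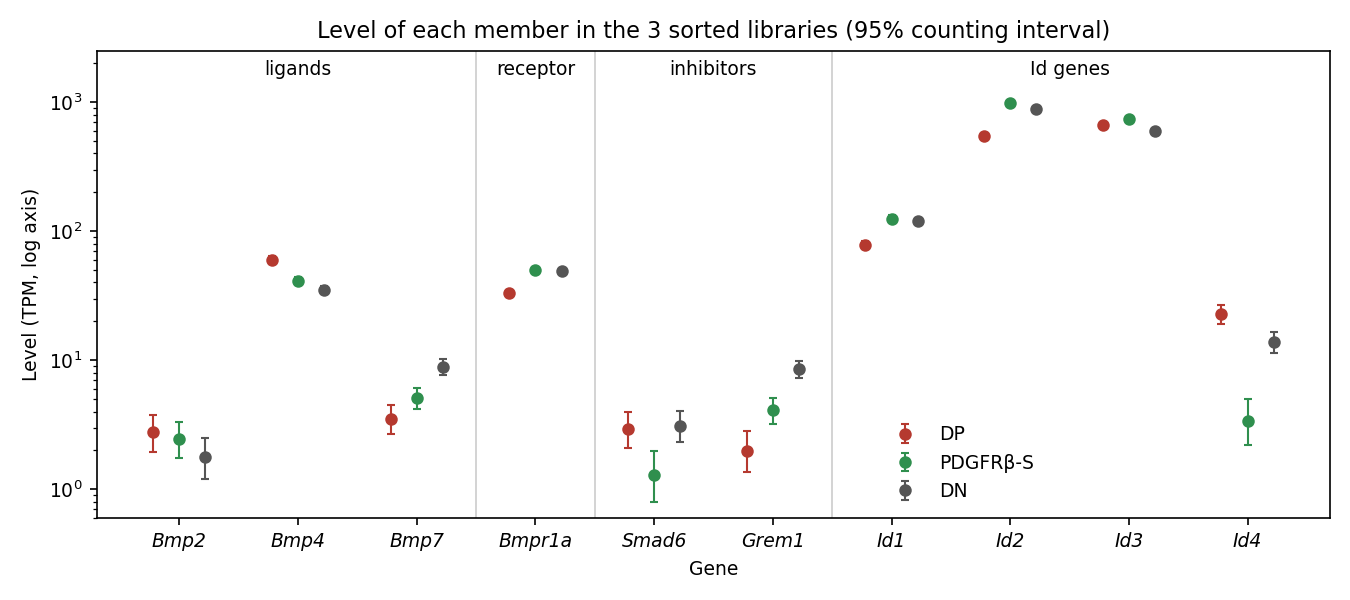
Level of the 10 genes in TPM (log axis) in DP, PDGFRβ-S and DN, 1 library each, with 95% counting intervals as bars. Bmp4 was highest in DP at 59.8 TPM, Bmp7 and Grem1 were highest in DN at 8.91 and 8.47 TPM, and Id4 was lowest in PDGFRβ-S at 3.40 TPM.

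The balance of ligands was also compared within each library, where the scaling of the libraries cancels. Bmp7 was at 5.86% of the Bmp4 TPM in DP cells (4.46 to 7.57), 12.3% in PDGFRβ-S cells (9.99 to 15.1) and 25.4% in DN cells (21.6 to 29.8). These intervals did not overlap. Bmp2 was at 4.62%, 5.92% and 5.06% of Bmp4 in the DP, PDGFRβ-S and DN libraries, with overlapping intervals. The percentages compare genes by the authors' gene lengths, so their differences between libraries are firmer than their size.

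Bmpr1a encodes a type I receptor for BMP2 and BMP4 (chromosome 14, 34410734 to 34503341). It was at 33.0 TPM in DP cells (30.9 to 35.2), 50.2 in PDGFRβ-S cells (47.8 to 52.7) and 49.3 in DN cells (46.96 to 51.7), on at least 884, 1602 and 1681 reads. DP lay below both other libraries, 1.49-fold against DN (1.38 to 1.62) and 1.52-fold against PDGFRβ-S (1.40 to 1.65). PDGFRβ-S and DN did not differ beyond counting error, with a ratio of 1.02 (0.950 to 1.09). Bmpr1a stayed within the 2-fold limit as deposited, and the antisense gene Gm17110 overlaps it at 1.05 TPM in DP cells, 4.13 in PDGFRβ-S cells and 2.76 in DN cells.

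Grem1 encodes gremlin, a secreted protein that binds BMP2, BMP4 and BMP7 and keeps them from their receptors (chromosome 2, 113746164 to 113758646). It was at 1.99 TPM in DP cells (1.36 to 2.81), 4.08 in PDGFRβ-S cells (3.22 to 5.09) and 8.47 in DN cells (7.25 to 9.83), on 32, 78 and 173 reads. The 3 intervals were apart, with DP lowest and DN highest. Grem1 was lower in DP than in DN, 4.25-fold (2.90 to 6.40), and this stayed past the limit under the 3 other scalings, at log2 ratios between −2.09 and −1.38. It was 2.08-fold lower in PDGFRβ-S than in DN (1.58 to 2.75), which the pseudocount of 1 TPM brings to a log2 ratio of −0.90, within the limit. In DP against PDGFRβ-S Grem1 was 2.05-fold lower (1.34 to 3.19), with less than 5 TPM in both libraries.

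Set against its ligand, Grem1 was at 3.33% of the Bmp4 TPM in DP cells (2.27 to 4.74), 9.89% in PDGFRβ-S cells (7.73 to 12.5) and 24.2% in DN cells (20.3 to 28.6). Grem1 and Bmp4 thus ran in opposite orders over the 3 libraries, and the intervals of this percentage did not overlap. Sclerotome and cartilage markers had the same order as Grem1 and Bmp7, with 38.1 TPM in DP cells, 57.9 in PDGFRβ-S cells and 108 in DN cells summed over 6 genes. Of these, Nkx3-2 and Acan were listed at 0 in PDGFRβ-S, and the most abundant, Col2a1, was at 14.6 TPM in DP cells, 20.0 in PDGFRβ-S cells and 47.9 in DN cells. Sympathetic and skeletal muscle markers were also highest in DN. Their part in the values of Grem1 and Bmp7 was not tested.

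**Figure D2:**
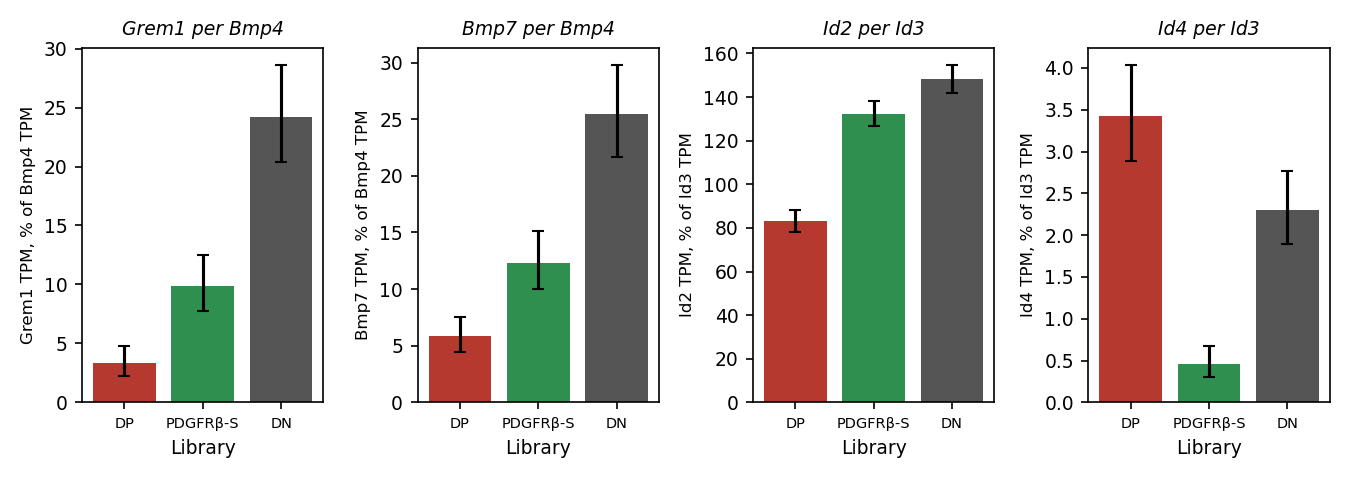
TPM of 1 gene as a percentage of the TPM of another in the same library, for DP, PDGFRβ-S and DN, with 95% counting intervals. Grem1 was at 3.33%, 9.89% and 24.2% of Bmp4 in the DP, PDGFRβ-S and DN libraries, Id2 at 83.0%, 132% and 148% of Id3, and Id4 at 3.43%, 0.461% and 2.30% of Id3.

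Smad6, the inhibitory Smad that BMP signaling induces and that blocks type I receptors (chromosome 9, 63953076 to 64022059), was low throughout. It was at 2.93 TPM in DP cells (2.09 to 3.99), 1.29 in PDGFRβ-S cells (0.800 to 1.97) and 3.11 in DN cells (2.34 to 4.06), on 40, 21 and 54 reads. DP and DN did not differ beyond counting error, with a ratio of 0.943 (0.610 to 1.45). PDGFRβ-S was lower than both, 2.41-fold against DN (1.43 to 4.20), and DP was 2.27-fold higher than PDGFRβ-S (1.31 to 4.05). With less than 5 TPM in each library Smad6 was not counted.

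Promoters of 7 of the 10 genes were matched in RefSeq sequences of GRCm38.p6, and those of Smad6, Id2, Id3 and Id4 are shown because these genes are known targets of the pathway and had different patterns here. Of the matched genes they are all the targets, as Id1, Bmp2 and Bmp7 were not among them. Each runs from 250 bases before the transcript start to 30 bases after it, on the strand of the gene. The start is that of the RefSeq sequence and can differ from the gene coordinates given here. The whole Id4 window lies before the listed gene start at 48261427. The Id3 window lies inside the gene, which is listed from 136143497. Capitals mark GTCTAGAC, a palindrome that Smad proteins bind, and GGCGCC, the GC-rich core of BMP response elements. Both read the same on either strand and do not overlap here. The sequences lie at chr9:64022030-64022309 on the minus strand for Smad6, at chr12:25096063-25096342 on the minus strand for Id2, at chr4:136143572-136143851 on the plus strand for Id3 and at chr13:48260866-48261145 on the plus strand for Id4.
Smad6: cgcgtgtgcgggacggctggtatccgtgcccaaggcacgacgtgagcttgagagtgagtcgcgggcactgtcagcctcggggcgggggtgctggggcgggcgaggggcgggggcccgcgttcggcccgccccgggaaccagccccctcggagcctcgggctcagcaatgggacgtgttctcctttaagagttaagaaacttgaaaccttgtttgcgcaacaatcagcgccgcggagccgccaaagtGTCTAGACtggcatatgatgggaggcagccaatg
Id2: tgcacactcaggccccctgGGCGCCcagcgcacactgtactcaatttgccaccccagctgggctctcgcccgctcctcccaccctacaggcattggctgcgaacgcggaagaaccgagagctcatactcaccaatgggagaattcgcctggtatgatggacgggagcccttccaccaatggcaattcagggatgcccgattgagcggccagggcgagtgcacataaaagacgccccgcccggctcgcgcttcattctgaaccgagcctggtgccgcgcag
Id3: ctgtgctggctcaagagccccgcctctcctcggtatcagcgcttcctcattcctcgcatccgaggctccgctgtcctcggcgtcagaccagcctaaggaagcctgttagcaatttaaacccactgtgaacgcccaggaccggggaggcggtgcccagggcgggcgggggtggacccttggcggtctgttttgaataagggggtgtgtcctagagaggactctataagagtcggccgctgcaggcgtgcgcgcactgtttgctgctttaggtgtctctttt
Id4: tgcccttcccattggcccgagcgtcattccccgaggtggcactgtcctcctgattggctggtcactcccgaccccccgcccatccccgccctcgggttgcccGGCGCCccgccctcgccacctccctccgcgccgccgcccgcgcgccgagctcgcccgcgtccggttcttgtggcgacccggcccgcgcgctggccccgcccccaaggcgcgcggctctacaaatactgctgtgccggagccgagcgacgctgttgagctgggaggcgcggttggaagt
Smad6 held GTCTAGAC, with its first base at position −4 from the transcript start, as did 0.192% of 32851 promoter windows of this length. Id2 held GGCGCC at position −231 and Id4 at −148, and the letters also occurred for Bmpr1a at −198 and Grem1 at −78. In all windows GGCGCC was found in 10.9%. Id3, Smad6 and Bmp4 did not hold GGCGCC in this window. The E-box letters CANNTG, which E proteins bind, occurred 3 times for Bmp4 and once each for Smad6 and Id2, and in 70.1% of all windows. A match describes the letters only.

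By the authors' gene lengths, Id1, Id2 and Id3 were the most abundant of the 10 genes in each library. On these lengths Id3 was above Id2 in DP, and Id2 above Id3 in PDGFRβ-S and DN. The Id genes together, Id4 included, summed to 1314 TPM in DP cells, 1842 in PDGFRβ-S cells and 1623 in DN cells. Id2 and Id3 made up most of this in each library, and both lay at percentile 98.9 or higher in each library among nuclear protein-coding genes with 1 TPM or more in any library.

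Id2 (chromosome 12, 25093801 to 25096092) was at 550.3 TPM in DP cells (521 to 580.4), 975 in PDGFRβ-S cells (940.04 to 1012) and 889 in DN cells (856 to 923). DP was lowest, 1.62-fold below DN (1.51 to 1.73) and 1.77-fold below PDGFRβ-S (1.66 to 1.89). PDGFRβ-S was 1.10-fold above DN (1.04 to 1.16), a difference that took the other sign, at −0.03 on the log2 scale, after quantile normalization. After rescaling to nuclear protein-coding genes or removal of the 20 highest genes its DP to PDGFRβ-S log2 ratio was −1.21 and −1.04, past the limit, against −0.82 as deposited.

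Id3 (chromosome 4, 136143497 to 136145755) was at 663 TPM in DP cells (646 to 680.3), 737 in PDGFRβ-S cells (721 to 754) and 600.1 in DN cells (586 to 615). As deposited it was the most even of the 10 genes, at most 1.23-fold apart between any 2 libraries (1.19 to 1.27, in PDGFRβ-S against DN). In DP against DN its ratio of 1.10 (1.07 to 1.14) changed sign under the other scalings, with log2 ratios down to −0.14. Id1 (chromosome 2, 152736251 to 152737410) was at 78.1 TPM in DP cells (72.2 to 84.5), 125 in PDGFRβ-S cells (118 to 132) and 120.2 in DN cells (114 to 127). Like Id2 and Bmpr1a it was lowest in DP, 1.54-fold below DN (1.40 to 1.70), while PDGFRβ-S and DN had a ratio of 1.04 with an interval that held 1 (0.961 to 1.13). Rescaled to nuclear protein-coding genes, Id1 was past the limit in DP against PDGFRβ-S, at a log2 ratio of −1.06.

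Mitochondrial and globin transcripts were, like Id1, Id2 and Bmpr1a, lowest in DP. Mitochondrial and summed globin transcripts were highest in PDGFRβ-S, though the globin gene Hba-x was highest in DN, at 1950 TPM against 1216 in PDGFRβ-S. As deposited, Id2 was also highest in PDGFRβ-S, at 975 TPM against 889 in DN. Id1 and Bmpr1a did not differ between PDGFRβ-S and DN beyond counting error. Ribosomal RNA was highest in DP and lowest in PDGFRβ-S. Mitochondrial transcripts took 10.5% of TPM in DP cells, 25.5% in PDGFRβ-S cells and 24.4% in DN cells. Globin transcripts summed to 624 TPM in DP cells, 15184 in PDGFRβ-S cells and 14503 in DN cells. Of the other blood markers, Ptprc and Spi1, which mark white blood cells, were listed at 0 in each library. Csf1r was at 1.81 TPM in DP cells, 2.44 in PDGFRβ-S cells and 2.74 in DN cells. Runx1 was at 0.525, 1.05 and 1.17 TPM and Gata1 at 0, 0.943 and 1.47 TPM in the DP, PDGFRβ-S and DN libraries. Ribosomal RNA took 12.3% of TPM in DP cells, 0.624% in PDGFRβ-S cells and 1.14% in DN cells. The part of these transcripts in the levels of Id1, Id2 and Bmpr1a was not tested.

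Id4 (chromosome 13, 48261427 to 48264036) differed most between the libraries. It was at 22.7 TPM in DP cells (19.2 to 26.7), 3.40 in PDGFRβ-S cells (2.22 to 4.98) and 13.8 in DN cells (11.4 to 16.6), on at least 146, 26 and 113 reads. The PDGFRβ-S library was low and the intervals of the 3 did not overlap. Id4 was 6.69-fold higher in DP than in PDGFRβ-S (4.39 to 10.6) and 4.07-fold lower in PDGFRβ-S than in DN (2.64 to 6.49). Both differences stayed past the limit under the other scalings, at log2 ratios of 2.07 to 2.43 and of −1.81 to −1.47. DP was 1.64-fold above DN (1.28 to 2.12), within the limit. A noncoding gene on the opposite strand that overlaps Id4, A330033J07Rik, was at 1.51 TPM in DP, listed at 0 in PDGFRβ-S and at 0.132 TPM in DN.

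The make-up of the Id genes was compared within libraries, again free of scaling. Id2 was at 83.0% of the Id3 TPM in DP cells (78.2 to 88.1), 132% in PDGFRβ-S cells (127 to 138) and 148% in DN cells (142 to 155). By the authors' gene lengths, on which this order depends, Id3 thus exceeded Id2 in DP alone of the 3 libraries. Id1 was at 11.8%, 17.0% and 20.0% of Id3 in the DP, PDGFRβ-S and DN libraries. Id4 made up 1.73% of the summed Id TPM in DP cells, 0.184% in PDGFRβ-S cells and 0.851% in DN cells.

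As a sum, markers of mesothelium and gonadal ridge had the order of Id4, though not each of them did. Summed over 7 genes they were at 69.3 TPM in DP cells, 17.5 in PDGFRβ-S cells and 36.2 in DN cells. The mesothelial genes Upk3b (DP 27.7, PDGFRβ-S 1.84 and DN 5.06 TPM), Upk1b (DP 10.8, PDGFRβ-S 0.368 and DN 7.12 TPM) and Lrrn4 (DP 6.12, PDGFRβ-S listed at 0 and DN 5.30 TPM) were lowest in PDGFRβ-S, whereas Wt1 was even at 13.0 TPM in DP cells, 11.8 in PDGFRβ-S cells and 11.5 in DN cells. The gonadal ridge genes Nr5a1 (DP 4.50, PDGFRβ-S 0.0713 and DN 0.634 TPM) and Gata4 (DP 3.84, PDGFRβ-S 0.781 and DN 1.11 TPM) had the order of Id4. Lhx9 was highest in DN, at 3.32 TPM in DP cells, 2.71 in PDGFRβ-S cells and 5.38 in DN cells. The keratin genes Krt8 and Krt18 were the highest of the epithelial list. They were at 150 and 87.3 TPM in DP, 4.93 and 6.97 in PDGFRβ-S and 8.32 and 14.4 in DN. Of the 8 epithelial markers, 4 were listed at 0 in DP, namely Cdh1, Pax2, Foxa1 and Foxa2. Epcam was at 6.34 TPM in DP cells, 3.83 in PDGFRβ-S cells and 9.06 in DN cells. Pax8 was at 2.45 TPM in DP, listed at 0 in PDGFRβ-S and at 0.375 TPM in DN, the order of Id4. The part of such cells in the level of Id4 was not tested.

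**Figure D3:**
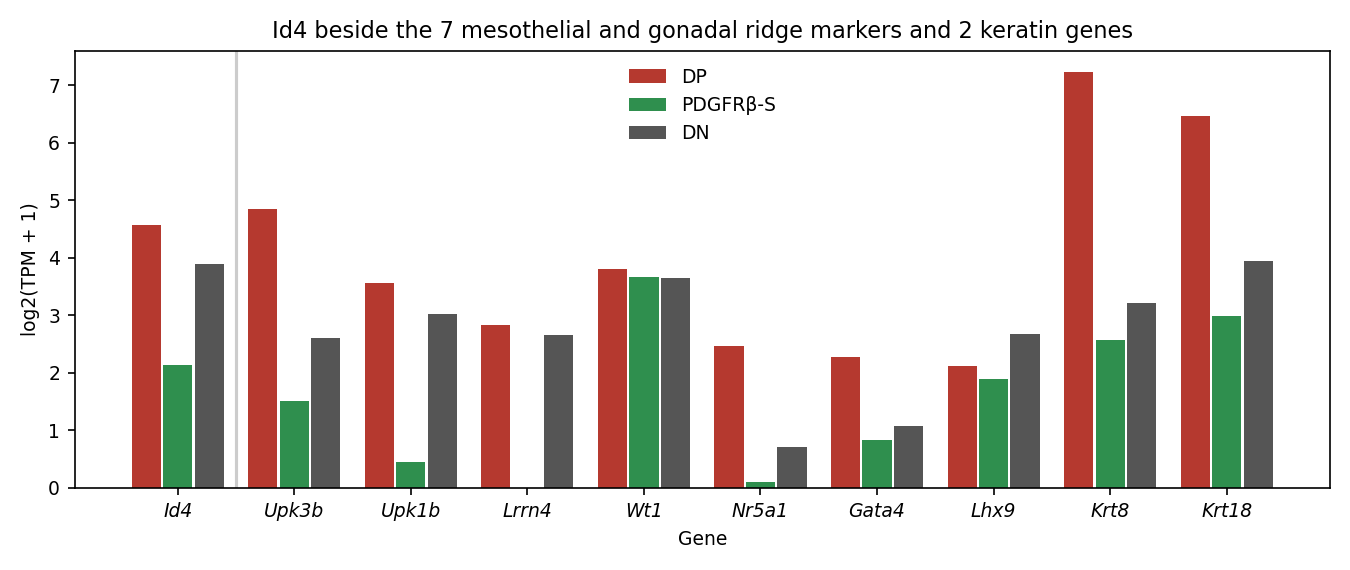
Level of Id4, of the 7 mesothelial and gonadal ridge markers and of Krt8 and Krt18 as log2(TPM + 1) in DP, PDGFRβ-S and DN, 1 library each. Id4 (DP 22.7, PDGFRβ-S 3.40 and DN 13.8 TPM), Upk3b, Upk1b and Lrrn4 were lowest in PDGFRβ-S, and Wt1 (DP 13.0, PDGFRβ-S 11.8 and DN 11.5 TPM) was level.

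Counted over the 10 genes, 1 or 2 passed the limit in each comparison. In DP against DN, 8 of the 10 reached 5 TPM, of which 0 were higher and 2, Bmp7 and Grem1, were lower, while 16.9% of all 11287 genes at this level were higher and 19.1% lower. Their median log2 ratio was −0.59, against −0.03 for all genes at this level. In PDGFRβ-S against DN, 0 of 8 were higher and 1, Id4, was lower, against 2.23% and 10.9% of 10526 genes. Here the median was 0.04, against −0.31 for all genes. In DP against PDGFRβ-S, 1 of 7, Id4, was higher and 0 were lower, against 28.3% and 12.5% of 10551 genes, and the median was −0.43, against 0.32 for all genes. The 3 comparisons share libraries and are not independent of one another. With so few genes, nothing particular to the 10 is read from these counts.

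**Figure D4:**
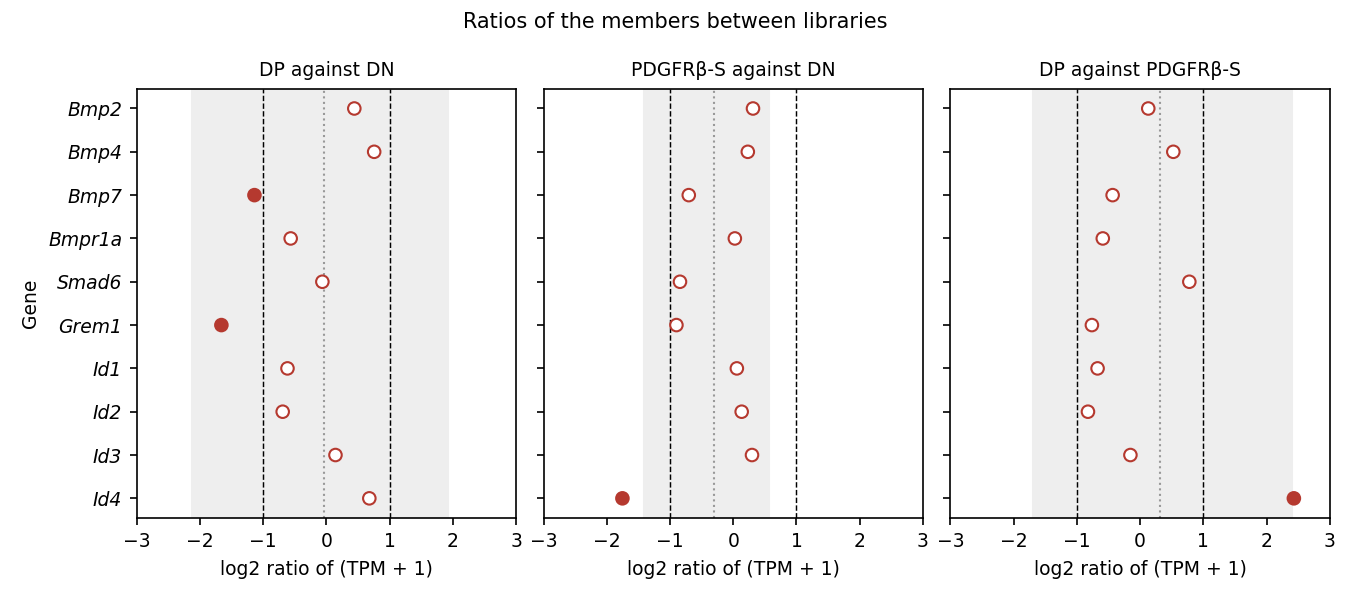
Log2 ratio of (TPM + 1) of the 10 genes in the 3 comparisons. Filled points passed the 2-fold limit (dashed lines) with 5 TPM or more, the grey band holds 90% of all genes at that level and the dotted line is their median. Bmp7 (−1.14) and Grem1 (−1.66) were past it in DP against DN, and Id4 in PDGFRβ-S against DN (−1.75) and in DP against PDGFRβ-S (2.43).

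The rest of the pathway was described from 89 further genes in 8 lists, of ligands, receptors, Smads, antagonists, modulators, targets and helix-loop-helix partners. In DP against DN, 47 of them reached 5 TPM, of which 6 were higher and 11 lower, against 16.9% and 19.1% of all genes at this level. In PDGFRβ-S against DN, 1 of 44 was higher and 6 were lower, against 2.23% and 10.9% of all genes. In DP against PDGFRβ-S 11 of 44 were higher and 7 lower, against 28.3% and 12.5%. These counts are near the shares of all genes. Their median log2 ratios were −0.17, −0.38 and 0.03 in these comparisons, beside −0.03, −0.31 and 0.32 for all genes at this level.

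Of 7 receptor and co-receptor genes at 5 TPM, 4 were lower in DP than in DN and 0 were higher, beside 19.1% and 16.9% of all genes, with a median log2 ratio of −1.10 beside −0.03. In PDGFRβ-S against DN 2 of the 7 were lower, beside 10.9% of all genes. Bmpr2, the type II receptor of BMPs, was at 6.69 TPM in DP cells, 14.7 in PDGFRβ-S cells and 17.5 in DN cells, and Acvr2a, a type II receptor shared with activins, at 5.70 TPM in DP cells, 14.5 in PDGFRβ-S cells and 21.8 in DN cells. Acvr2b (DP 12.4, PDGFRβ-S 12.2 and DN 27.6 TPM) and the co-receptor gene Rgmb (DP 11.6, PDGFRβ-S 15.1 and DN 31.3 TPM) were lower in DP and in PDGFRβ-S than in DN. In PDGFRβ-S against DN, Rgmb was within the limit under each of the 3 other scalings and Acvr2b under 1 of them. Bambi, a decoy receptor and the most abundant of the list, was at 35.1 TPM in DP cells, 28.7 in PDGFRβ-S cells and 45 in DN cells and within the limit.

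Of 10 Smad and regulator genes, 3 were lower and 1 higher in DP than in DN, near the shares of all genes. The counts were the same in DP against PDGFRβ-S, where 12.5% of all genes were lower and 28.3% higher. Smad5, a carrier of the BMP signal, was at 7.83 TPM in DP cells, 25.7 in PDGFRβ-S cells and 33.8 in DN cells, 4.31-fold below DN (3.89 to 4.80). Smad4, the partner of all receptor-activated Smads, was at 11.9 TPM in DP cells, 29.5 in PDGFRβ-S cells and 34.0 in DN cells. Lemd3, a nuclear envelope protein that binds Smads, was at 2.66 TPM in DP cells, 7.03 in PDGFRβ-S cells and 6.79 in DN cells, and its DP to DN difference was within the limit after quantile normalization. Fkbp1a, which binds type I receptors and keeps them inactive, was higher in DP at 167 TPM, against 56.5 in PDGFRβ-S and 66.2 in DN. Smad1 did not follow Smad5, at 9.49 TPM in DP cells, 10.5 in PDGFRβ-S cells and 7.52 in DN cells, and is named here after its values were seen.

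Of 7 extracellular antagonists other than Grem1 at 5 TPM, 3 were higher and 1 lower in DP than in DN, beside 16.9% and 19.1% of all genes. In DP against PDGFRβ-S 5 were higher and 0 lower, beside 28.3% and 12.5% of all genes. Rescaling to nuclear protein-coding genes or quantile normalization left 3 of these 5 past the limit, without Fst and Dand5. Fstl3, a follistatin-like protein that binds activins and some BMPs, was at 28.7 TPM in DP cells, 1.27 in PDGFRβ-S cells and 0.726 in DN cells, 39.6-fold apart in DP against DN (23.3 to 73.0). Fstl1, a more distant relative, was the most abundant at 296 TPM in DP cells, 171 in PDGFRβ-S cells and 108 in DN cells. Sostdc1, a BMP and Wnt antagonist, was at 15.6 TPM in DP cells, 4.58 in PDGFRβ-S cells and 6.03 in DN cells, Nbl1 at 11.3 TPM in DP cells, 2.33 in PDGFRβ-S cells and 8.90 in DN cells, Fst (follistatin) at 21.8 TPM in DP cells, 8.26 in PDGFRβ-S cells and 14.7 in DN cells and Dand5 at 12.9 TPM in DP cells, 4.79 in PDGFRβ-S cells and 8.33 in DN cells. Cer1 had the order of Grem1, at 4.61 TPM in DP cells, 7.23 in PDGFRβ-S cells and 13.9 in DN cells. Sostdc1, Nbl1, Fst and Dand5 were lowest in PDGFRβ-S, as was Id4. Dissociation stress genes were also highest in DP, at 179 TPM summed over 10 genes, against 49.9 in PDGFRβ-S and 70.6 in DN, and their part was not tested.

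**Figure D5:**
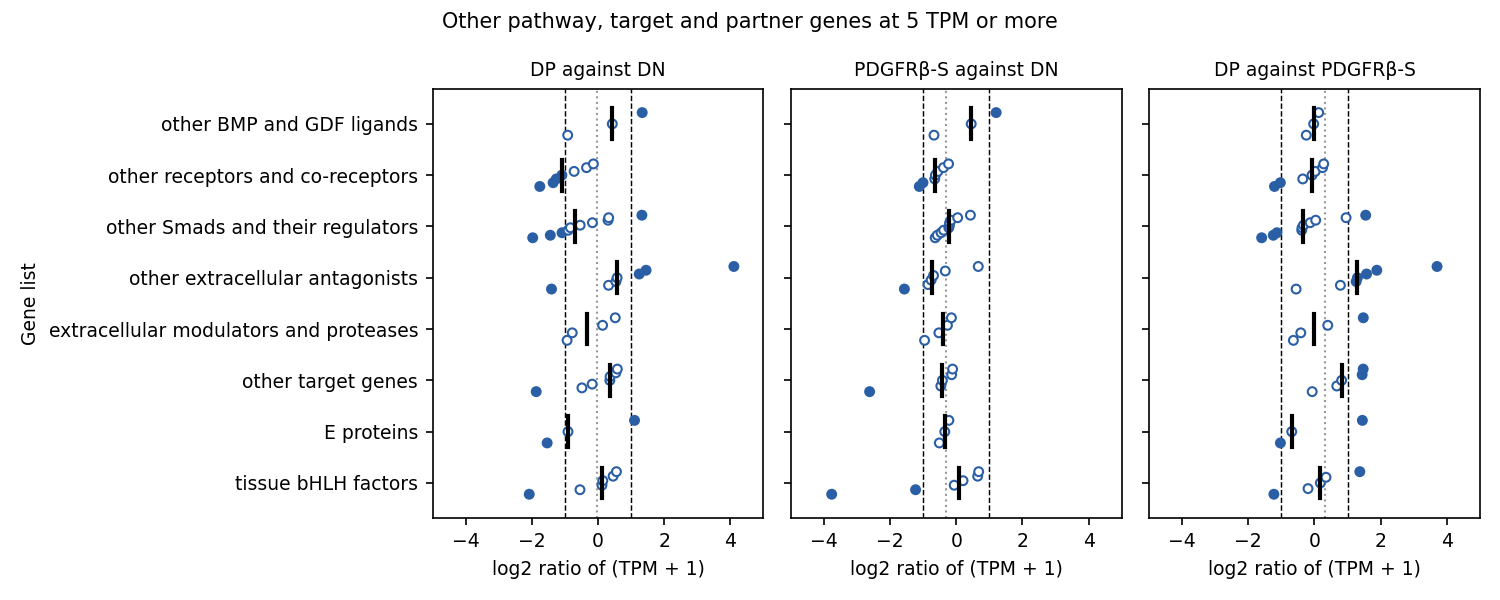
Log2 ratio of (TPM + 1) of the other pathway, target and partner genes with 5 TPM or more, by list, in the 3 comparisons. Filled points passed the 2-fold limit (dashed lines), black bars are list medians and the dotted line is the median over all genes at 5 TPM or more. In DP against DN, 4 of 7 receptors were lower and 3 of 7 antagonists higher, beside 19.1% and 16.9% of all genes.

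Among other ligands, Gdf10 (BMP3b) was higher in both PDGFRβ-positive libraries, at 9.07 TPM in DP and 8.22 in PDGFRβ-S, against 3.00 in DN. Bmp5, the most abundant of this list, was within the limit at 24.4 TPM in DP cells, 24.8 in PDGFRβ-S cells and 17.8 in DN cells. Twsg1, which modulates BMPs outside the cell, was at 25.2 TPM in DP cells, 33.9 in PDGFRβ-S cells and 49.3 in DN cells and within the limit, and Pcsk5, a protease that can process precursors of the family, was at 12.4 TPM in DP, against 3.83 in PDGFRβ-S and 8.39 in DN.

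Other genes that BMP signaling can induce were low, and Hey1, the highest on average, was at 10.7 TPM in DP cells, 5.64 in PDGFRβ-S cells and 8.17 in DN cells. Hand1 (DP 6.77, PDGFRβ-S 1.86 and DN 4.19 TPM) and Hand2 (DP 6.36, PDGFRβ-S 1.65 and DN 4.72 TPM), helix-loop-helix factors of lateral mesoderm, were higher in DP than in PDGFRβ-S. Gata3 was at 4.45 TPM in DP cells, 0.244 in PDGFRβ-S cells and 6.65 in DN cells. These 3 genes, like Id4 and Smad6, were lowest in PDGFRβ-S, and Gata3 and Hand2 are also expressed by sympathetic cells, whose markers were highest in DN. Tbx3 ran otherwise, at 0.708 TPM in DP cells, 3.68 in PDGFRβ-S cells and 5.26 in DN cells.

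Of the 3 E protein genes, with whose products Id proteins pair, 1 was higher and 1 lower in DP than in DN. Of all genes, 16.9% were higher and 19.1% lower there. In DP against PDGFRβ-S 1 was also higher and 1 lower, beside 28.3% and 12.5% of all genes. Tcf3 (E2A) was at 14.3 TPM in DP cells, 4.62 in PDGFRβ-S cells and 6.15 in DN cells, although its DP to DN difference passed the limit under 1 of the 3 other scalings only. Tcf4 (E2-2) had the opposite order of DP and DN, with 3.17 TPM in DP cells, 7.50 in PDGFRβ-S cells and 11.1 in DN cells, and Tcf12 (HEB), the most abundant, was at 16.7 TPM in DP cells, 27.5 in PDGFRβ-S cells and 32.3 in DN cells and within the limit. Among tissue helix-loop-helix factors, Tcf21 of epicardial and kidney mesenchyme was at 55.8 TPM in DP cells, 20.9 in PDGFRβ-S cells and 50.5 in DN cells, with the same order as Id4, although each of its calls was lost under 1 of the 3 other scalings. Twist1, a factor of mesenchyme, was at 15.8 TPM in DP cells, 38.4 in PDGFRβ-S cells and 23.6 in DN cells, highest where Id4 was lowest. Myod1, of skeletal muscle, was at 3.35 TPM in DP cells, 0.351 in PDGFRβ-S cells and 17.4 in DN cells.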

How the data were processed

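The submitters' notes give alignment with TopHat2 2.0.10 to mm10. The authors deposited TPM for genes with Ensembl identifiers, 1 column per library. Their methods name Cufflinks TPM and, separately, counting over GENCODE, and which route made the table is not stated. cDNA was made by a Smart-seq2-type protocol and sequenced as short single reads without strand or molecular identifiers. A second sheet with 4 columns was not used, since its names did not match the samples.

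Whole reads were recovered because dividing TPM times gene length by 1 constant for the library left whole numbers, within 0.002 of a read. The length that worked was the sum over distinct exons, overlaps included: taken from GENCODE M21 it gave whole reads in all 3 libraries for 65.8% of 9422 genes with 50 to 5000 reads, against 8.73% with merged exons. It worked for 6 of the 10 genes. For Bmp4, Bmpr1a, Id2 and Id4 the shortest working length was used, which gives the fewest reads and the widest intervals. Tcf4 gave no whole reads.

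Ratios are log2((TPM + 1)/(TPM + 1)). The members, lists and limits were chosen with earlier results of these data known. All 10 members are named, and of the other lists the genes past the limit and the most abundant. Alternatives were pseudocounts of 0.1 and 5 TPM, no filter or 10 TPM, and 3 other scalings: to nuclear protein-coding genes, after removal of the 20 highest genes, and quantile normalization. The scripts, in Python 3.11.15 with pandas 2.3.3 and SciPy 1.17.1, were tested on simulated data.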

Additional observations from a re-analysis of the deposited data

How the results depend on the processing

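Of 150 log2 ratios of the members under the alternative scalings and pseudocounts, 7 had another sign, none of them of a gene past the limit. These were Id3 in DP against DN under the 3 other scalings, Smad6 in DP against DN and Id2 in PDGFRβ-S against DN after quantile normalization, and Bmp2 in DP against PDGFRβ-S with nuclear protein-coding scaling or removal of the 20 highest genes. Id4 in DP against PDGFRβ-S stayed between 1.72 and 2.71. The cause of the shifts was not tested. With 1 library per group no library could be left out, and some genes near 5 TPM rest on few reads, depending on their length. No paired analysis was possible because each group has 1 library.

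With a pseudocount of 5 TPM, 0 members were lower in DP than in DN. The other genes gave 3 higher and 5 lower there, 0 and 3 in PDGFRβ-S against DN, and 7 and 3 in DP against PDGFRβ-S. Of all 11287 genes at 5 TPM or more, 1336 were then higher and 1244 lower in DP than in DN. In PDGFRβ-S against DN these were 113 and 477 of 10526, and in DP against PDGFRβ-S 2065 and 835 of 10551. With 0.1 TPM, 2 members were lower in PDGFRβ-S cells than in DN, beside 1405 of all 10526 genes. Rescaled to nuclear protein-coding genes, 24 other genes were lower in DP than in DN, beside 4488 of all 14189 genes. In PDGFRβ-S against DN 2 other genes were higher, beside 662 of all 14070 genes. In DP against PDGFRβ-S 3 members and 17 other genes were lower, beside 3298 of all 13430 genes. Without the 20 highest genes, 20 other genes were lower in DP than in DN, beside 3400 of all 12908 genes. In DP against PDGFRβ-S 2 members were lower, beside 2297 of all 12176 genes. After quantile normalization 1 member was lower in DP than in DN, beside 1900 of all 10901 genes. The other genes then gave 2 higher and 3 lower in PDGFRβ-S against DN, beside 535 and 558 of all 10346 genes. Without a filter the other genes lower in DP than in DN were 19, beside 4375 of all 47069 genes. Those in PDGFRβ-S against DN were 2 higher and 11 lower, beside 878 and 2742 of all genes. Those in DP against PDGFRβ-S were 17 and 11, beside 4044 and 2802 of all genes. At 10 TPM, 0 members were lower in DP than in DN, beside 1342 of all 8268 genes. In PDGFRβ-S against DN 0 other genes were higher, beside 111 of all 7375 genes.

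Over all genes, 1903 were higher and 2157 lower in DP than in DN, against 1720 and 4488 with nuclear protein-coding scaling and 1769 and 3400 without the 20 highest genes. In PDGFRβ-S against DN the split of 235 and 1151 became 535 and 558 after quantile normalization. In DP against PDGFRβ-S 2988 and 1323 became 2607 and 3298 with nuclear protein-coding scaling, 2780 and 2297 without the 20 highest genes, 2139 and 2064 after quantile normalization and 4044 and 2802 without a filter.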

Other observations

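The gene lengths behind the TPM count overlapping exons of different transcripts each time, so a gene with several overlapping transcripts has a lower TPM than on merged exons. Among the members whose length matched the annotation, the length was 1.81 times the merged one for Id1, 1.28 times for Id3, 1.16 times for Bmp7 and 1.10 times for Smad6, and the same as the merged one for Bmp2 and Grem1. Comparisons of a gene between libraries do not depend on this, whereas the order of genes within a library does.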
